A study of Homo sapiens with 6 samples.

Results

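The aminoacyl-tRNA synthetases were examined in the human gastric carcinoma cell line AGS, with and without celecoxib, an inhibitor of the prostaglandin-producing enzyme cyclooxygenase-2. The group was a list of 35 nuclear genes, chosen by symbol with earlier results of these data known: 19 for cytosolic enzymes and 16 for mitochondrial enzymes, whose symbols end in 2. All 35 were found among the 18417 genes of the array table that had a single symbol. RNA came from 6 arrays. In the control group (3 arrays), cells received no drug. In the celecoxib group (3 arrays), cells received 20 µM celecoxib for 24 h, after 48 h of growth in plates. The drug was dissolved in DMSO. No source used here says whether control wells received DMSO. The labelling reactions started from 250 ng of RNA. Titles describe the arrays as biological replicates, but the extraction protocol mentions that samples were pooled. The p-values therefore measure only the spread between these RNA samples, which may be technical. AGS is a single line. The RNA is bulk RNA, so fewer cells of a type and less RNA per cell cannot be told apart.

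Each synthetase joins an amino acid to its transfer RNA, the step that fixes the genetic code before an mRNA is read. Cytosolic and mitochondrial ribosomes are served by separate enzymes for most amino acids, all encoded in the nucleus, and several cytosolic enzymes sit together in the multisynthetase complex on the scaffold proteins AIMP1, AIMP2 and EEF1E1. When amino acids run short, uncharged transfer RNA activates the kinase GCN2 (EIF2AK4), translation of the transcription factor ATF4 rises, and ATF4 is known to increase transcription of many cytosolic synthetase genes, along with amino acid transporters and biosynthetic enzymes.

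ATF4 binds with C/EBP partners to a composite element whose core is written here as TGATGNAA (N is any base). Promoter windows from 250 bases before to 50 bases after the annotated start, from RefSeq on build GRCh38.p14, were searched on both strands. A window was at hand for 30 of the 35 genes (16 cytosolic and 14 mitochondrial). It held the core in 8 of them, against 1217 of 27305 genes with a window (4.46%) and 1270 of 35116 windows of the same length (3.62%). These were 7 cytosolic genes and the mitochondrial gene YARS2. The search, and the split by its result used further on, were chosen after the expression values had been seen. It was 1 of 7 spellings counted, which overlap one another in part. The others, with their members and their share of all windows, were TGATGNAAN (8 members, 3.61%), TGATGCAA (6 members, 0.866%), TGATGAAA (1 member, 1.11%), TGATG (15 members, 32.9%), ATTGCATC (1 member, 0.498%) and CCAAT (16 members, 34.6%). A match describes letters in a window and does not show that a factor binds there. The 30 bases around each match in the cytosolic genes are shown because 4 of these genes (MARS1, CARS1, AARS1 and GARS1) had groups that did not overlap. VARS1, with the largest difference, had no window here. Each reads 5′ to 3′ on the strand of its gene, with the core or its reverse complement, TTNCATCA, in capitals.
MARS1 (chr12:57488053-57488082, plus strand): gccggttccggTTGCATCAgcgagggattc
CARS1 (chr11:3057407-3057436, minus strand): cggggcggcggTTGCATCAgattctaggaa
AARS1 (chr16:70289675-70289704, minus strand): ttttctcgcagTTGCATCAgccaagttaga
GARS1 (chr7:30594834-30594863, plus strand): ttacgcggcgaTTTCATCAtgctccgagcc
TARS1 (chr5:33440956-33440985, plus strand): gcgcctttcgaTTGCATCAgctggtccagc
IARS1 (chr9:92293692-92293721, minus strand): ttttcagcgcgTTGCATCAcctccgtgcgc
NARS1 (chr18:57621804-57621833, minus strand): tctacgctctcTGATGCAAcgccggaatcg
The first 6 carry the core on the strand opposite to the gene, and NARS1 carries it on the same strand. GARS1 holds TGATGAAA, and the other 6 hold TGATGCAA. In MARS1 and CARS1 the core spans the annotated start itself, from base -4 to 4 and from base -2 to 6. In AARS1 it lies farthest upstream of these 7, from base -187 to -180.

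The arrays were alike across all genes (Pearson r from 0.985 to 0.996, across genes, which are not independent replicates). The epithelial markers EPCAM, KRT8, KRT18 and KRT19 lay at or above percentile 97.8 of genes in mean signal, CLDN4 at 86.2 and CDH1 at 62.6. The 5 fibroblast markers ran from 0.348 (LUM) and 1.29 (DCN) to 57.7 (COL1A1). Immune markers ran from 2.7 (PTPRC) to 30.8 (CD14), apart from LYZ, also made by gastric epithelium, at 100. The 4 endothelial markers ran from 12.3 (PECAM1) to 26.6 (CDH5), and the 7 gastric markers measured from 1.55 (GKN1) to 57.2 (TFF1) and 86.8 (PGC). One array stood apart: the median log2 value of 215 small nuclear and nucleolar RNA genes was 7.68 in celecoxib array 1, against 7.27 in both other celecoxib arrays and 7.01 to 7.14 in controls. The synthetases scattered most in that array too. Their deviations from the control mean had an SD over genes of 0.167 there and of 0.077 and 0.097 in celecoxib arrays 2 and 3. In the controls, which are themselves part of that mean, the SD was 0.041 to 0.064. Its part in the results was not tested beyond leaving it out and using the small RNA level as a covariate. That level was higher in every celecoxib array than in every control. The covariate therefore overlaps with the treatment, and a fit that holds both cannot fully tell them apart.

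Celecoxib was accompanied by small differences in synthetase transcripts. None of the 35 genes passed an adjusted p of 0.05 in limma, with Benjamini-Hochberg adjustment over all 18417 genes, of which 26 passed (0.141%). The smallest adjusted p was 0.312, for MARS1, and the largest 0.995. Every difference is the celecoxib mean minus the control mean on the log2 scale, and errors with it are standard errors from that fit. The differences ran from -0.26 (VARS1) to 0.13 (MARS2), 20 above zero and 15 below. Their median absolute size was 0.056, against 0.089 over all genes, and 7.97% of all genes had a larger difference than VARS1. For all 35 the 95% interval lay within 0.5 of zero (1.41-fold), as it did for 89.8% of all genes. The synthetases were also measured with less scatter, at a median within-group SD of 0.062 against 0.109 over all genes and 0.099 over the 9880 genes in the same range of mean signal.

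An unadjusted p under 0.05 was seen in 3 synthetases, all lower with celecoxib (against 4.44% of all genes), and in none in the higher direction (against 6.87%). Groups that did not overlap, with every celecoxib array below every control, were seen in 8 (22.9%, against 7.95% of all genes). These were AARS1, CARS1, GARS1, LARS1, MARS1 and VARS1 of the cytosol and CARS2 and SARS2 of mitochondria. The reverse order was seen in MARS2 alone (2.86%, against 11.1%). Over the 9880 genes in the same range of mean signal, 7.88% were apart and lower and 16.6% apart and higher. The same 8 genes were apart and lower after each of 3 further normalizations of the arrays, while MARS2 overlapped after quantile normalization and after cyclic loess.

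**Figure D1:**
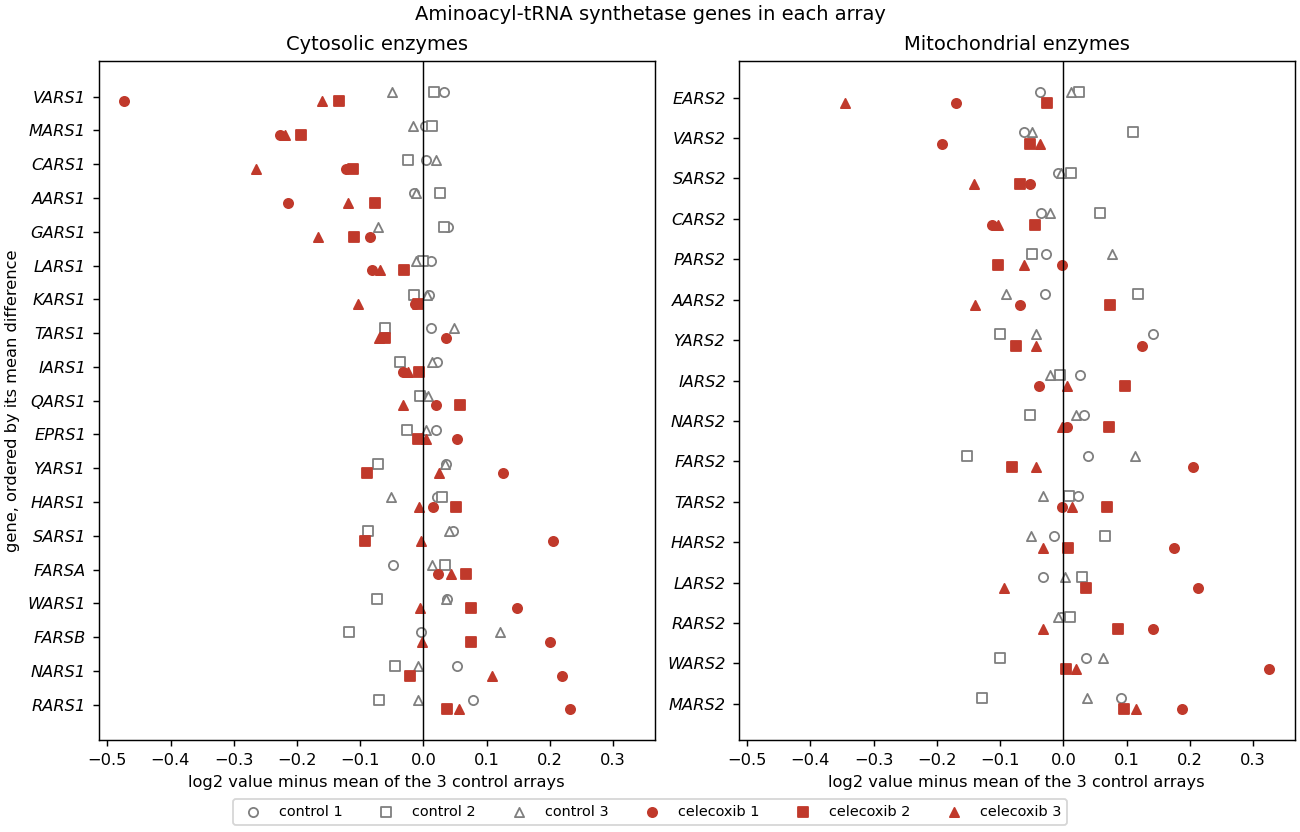
Log2 value of each synthetase in each array minus the mean of the 3 control arrays (x axis), with genes in rows ordered by mean difference, cytosolic left and mitochondrial right; open grey symbols are controls and filled red symbols celecoxib. MARS1 has 3 celecoxib arrays close together below its controls, while celecoxib array 1 gives the extremes of VARS1 (-0.47) and WARS2 (0.33).

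MARS1, which charges both initiator and elongator methionine transfer RNA in the cytosol and belongs to the multisynthetase complex, had the smallest p. Its log2 values were 10.42, 10.43 and 10.40 in controls and 10.19, 10.23 and 10.20 with celecoxib. The arrays of each group lay close together (SD 0.02 in both, n = 3), and the groups were well apart. The difference was -0.21 ± 0.06 (1.16-fold lower, 95% interval -0.36 to -0.07; limma adjusted p = 0.312). It stayed between -0.25 and -0.195 in all 18 alternative settings, with an unadjusted p under 0.05 and an adjusted p from 0.107 to 0.709. MARS1 and DDIT3 are neighbours whose annotated ends overlap, and whether any probe lies in the overlap was not tested.

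VARS1, the valine enzyme, which associates with the elongation factor eEF1, had the lowest difference of the group. Its values were 8.62, 8.61 and 8.54 in controls and 8.12, 8.46 and 8.43 with celecoxib. All 3 celecoxib arrays were below the controls, but array 1 lay far below the other celecoxib arrays. The difference was -0.26 ± 0.10 (limma adjusted p = 0.408). Without celecoxib array 1 it was -0.15 (adjusted p = 0.562), and with the small RNA level as a covariate -0.03 (adjusted p = 0.934). A second transcript cluster named VARS1 listed identical values.

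CARS1, the cysteine enzyme, stood at 7.95, 7.92 and 7.97 in controls and at 7.82, 7.83 and 7.68 with celecoxib. Array 3 was the lowest of the celecoxib arrays here, and the groups were apart. The difference was -0.17 ± 0.07 (limma adjusted p = 0.44), and -0.12 without celecoxib array 3 (adjusted p = 0.543). Its unadjusted p was under 0.05 in 10 of the 18 alternative settings.

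AARS1, the alanine enzyme, read 10.01, 10.05 and 10.01 in controls and 9.81, 9.95 and 9.91 with celecoxib, a difference of -0.14 ± 0.07 (adjusted p = 0.489). GARS1, whose gene supplies the glycine enzyme of both cytosol and mitochondria, read 11.03, 11.02 and 10.92 in controls and 10.90, 10.88 and 10.82 with celecoxib, a difference of -0.12 ± 0.07 (adjusted p = 0.53). LARS1, the leucine enzyme of the complex, known also as a leucine sensor for mTORC1, read 9.84, 9.83 and 9.82 in controls and 9.75, 9.80 and 9.76 with celecoxib. In LARS1 the groups were apart by little, at a difference of -0.06 ± 0.06, which is no larger than its standard error. With the small RNA level as a covariate AARS1 was at -0.05 (adjusted p = 0.859) and LARS1 at -0.04 (adjusted p = 0.89).

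The other enzymes of the multisynthetase complex lay close to zero or above it. EPRS1, a single protein that charges both glutamate and proline transfer RNA, read 10.42, 10.37 and 10.40 in controls and 10.45, 10.39 and 10.40 with celecoxib. QARS1, the glutamine enzyme, read 11.05, 11.05 and 11.06 in controls and 11.08, 11.12 and 11.03 with celecoxib. KARS1, whose gene supplies the lysine enzyme of both compartments, read 10.24, 10.21 and 10.23 in controls and 10.21, 10.22 and 10.12 with celecoxib. The groups overlapped in all 3 genes, with differences of 0.02, 0.02 and -0.04. IARS1, the isoleucine enzyme, stood at -0.02. RARS1, the arginine enzyme, had the highest difference of the cytosolic group at 0.11 ± 0.08 (adjusted p = 0.62), from 10.09, 9.94 and 10.00 in controls to 10.25, 10.05 and 10.07 with celecoxib. Celecoxib array 1 was again the extreme of RARS1, and without it the difference was 0.05, while with the small RNA level as a covariate it was -0.04. Over the 7 enzymes of the complex, 3 were higher and 4 lower, with a median of -0.02.

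Of the remaining cytosolic enzymes, those for asparagine (NARS1, 0.10), phenylalanine (FARSA, 0.05, and FARSB, 0.09, the subunits of 1 enzyme), tryptophan (WARS1, 0.07), serine (SARS1, 0.04), histidine (HARS1, 0.02) and tyrosine (YARS1, 0.02) were above zero, and threonine (TARS1, -0.03) below. Their groups all overlapped. NARS1, FARSB, SARS1, WARS1 and YARS1 each had their highest value in celecoxib array 1. Without that array NARS1 stood at 0.044, FARSB at 0.036 and WARS1 at 0.035, and SARS1 and YARS1 were below zero at -0.048 and -0.032. The cytosolic median was 0.015 with 10 higher and 9 lower, against -0.007 over all genes, but it turned to -0.012 after quantile normalization and -0.022 after cyclic loess.

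The 2 structural classes of synthetase, which bind ATP through unrelated folds, both had medians near zero. The 18 class I genes had a median of 0.009 and the 16 class II genes a median of 0.023, EPRS1 being left out because it holds a domain of each class.

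The mitochondrial enzymes gave 10 higher and 6 lower values with a median of 0.024, which became -0.002 after quantile normalization and -0.012 after cyclic loess. MARS2, which charges the methionine transfer RNA of mitochondria, read 7.90, 7.68 and 7.85 in controls and 8.0, 7.91 and 7.93 with celecoxib. The groups were barely apart, and control array 2 lay below the other controls. The difference was 0.13 ± 0.08 (adjusted p = 0.544), and 0.07 without that array. EARS2, the glutamate enzyme, also makes the first, misacylated product on mitochondrial glutamine transfer RNA. It read 8.21, 8.27 and 8.25 in controls and 8.07, 8.22 and 7.90 with celecoxib. Celecoxib array 2 overlapped the controls and array 3 lay lowest. The difference was -0.18 ± 0.09 (adjusted p = 0.488), and -0.10 without celecoxib array 3.

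CARS2 read 9.05, 9.14 and 9.06 in controls and 8.97, 9.04 and 8.98 with celecoxib (difference -0.09 ± 0.07, adjusted p = 0.63). SARS2 read 8.92, 8.94 and 8.93 in controls and 8.88, 8.86 and 8.79 with celecoxib (difference -0.09 ± 0.07, adjusted p = 0.618). In both, all celecoxib arrays lay below all controls, by small steps. WARS2 read 8.27, 8.13 and 8.29 in controls and 8.56, 8.24 and 8.25 with celecoxib. Array 1 alone lay above the controls. The difference of 0.12 ± 0.10 (adjusted p = 0.674) was 0.01 without it. With the small RNA level as a covariate WARS2 was at -0.13, MARS2 at 0.03 and CARS2 at -0.04. The other mitochondrial enzymes ran from -0.09 (VARS2) to 0.07 (RARS2), all with overlapping groups, and YARS2 was nearest to zero at 0.002. VARS2 had a second transcript cluster, and it gave the same -0.09.

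Celecoxib array 1 had the highest value of the 3 celecoxib arrays in 18 synthetases and the lowest in 10, and celecoxib array 3 the highest in 1 and the lowest in 15. Without celecoxib array 1, 22 of the 35 genes were lower, the cytosolic and mitochondrial medians were -0.03 and -0.03, and 10 genes were apart and lower, against 13.6% of all genes apart and lower with those 5 arrays.

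**Figure D2:**
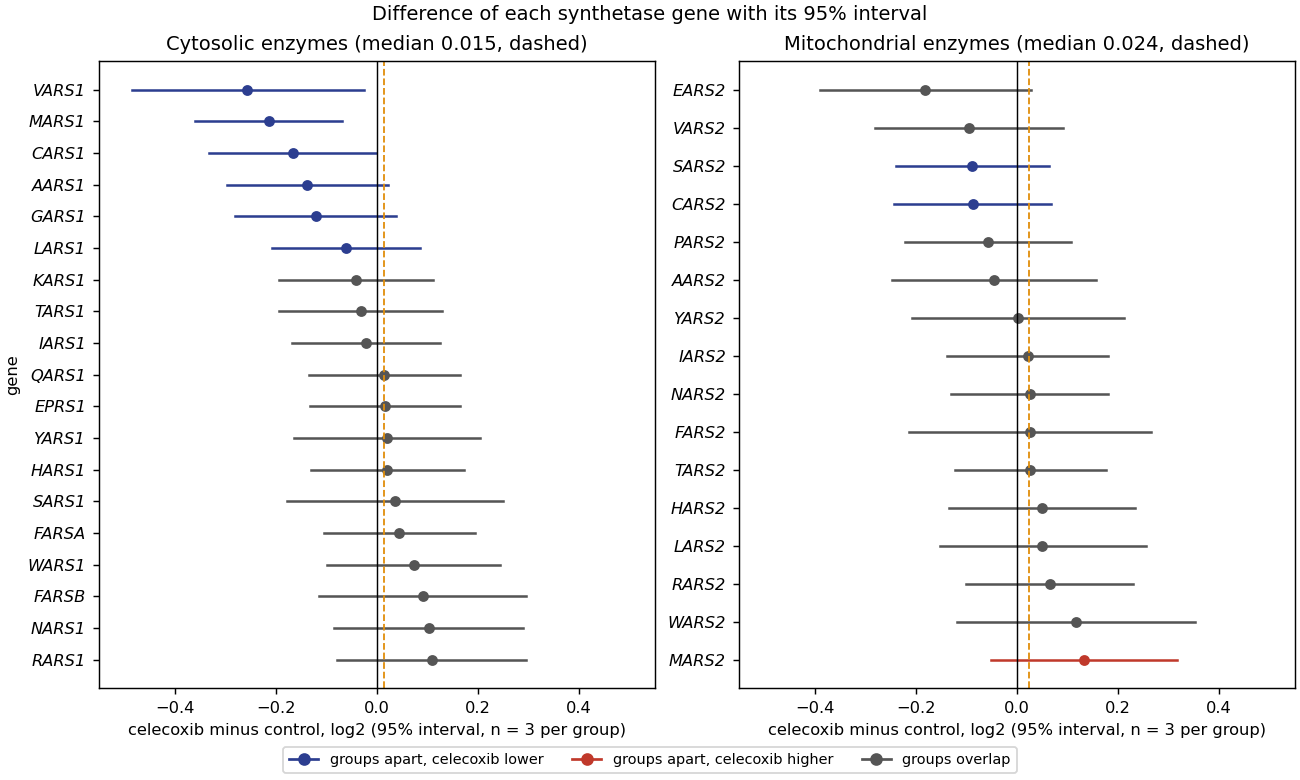
Difference between celecoxib and control (log2, points) with its 95% interval from limma (bars) for each synthetase, cytosolic left and mitochondrial right, n = 3 arrays per group; the dashed line is the median of each compartment. The 8 blue genes have all celecoxib arrays below all controls, and MARS2 is the red gene with the reverse order.

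The same amino acid is served by enzymes of both compartments in 17 pairings here, with EPRS1 set against both EARS2 and PARS2 and FARS2 against both FARSA and FARSB. The signs matched in 10 pairings, both higher in 7 and both lower in 3 (alanine, cysteine and valine), and were opposite in 7. The cytosolic enzyme had the more negative difference in 9 pairings and the more positive in 8. Methionine gave the widest gap, with MARS1 at -0.21 and MARS2 at 0.13, and valine followed among the pairings in which the cytosolic enzyme was lower, with VARS1 at -0.26 and VARS2 at -0.09. Glutamate gave the widest gap the other way, with EPRS1 at 0.02 and EARS2 at -0.18. Differences between the enzymes of a pairing were not tested.

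**Figure D3:**
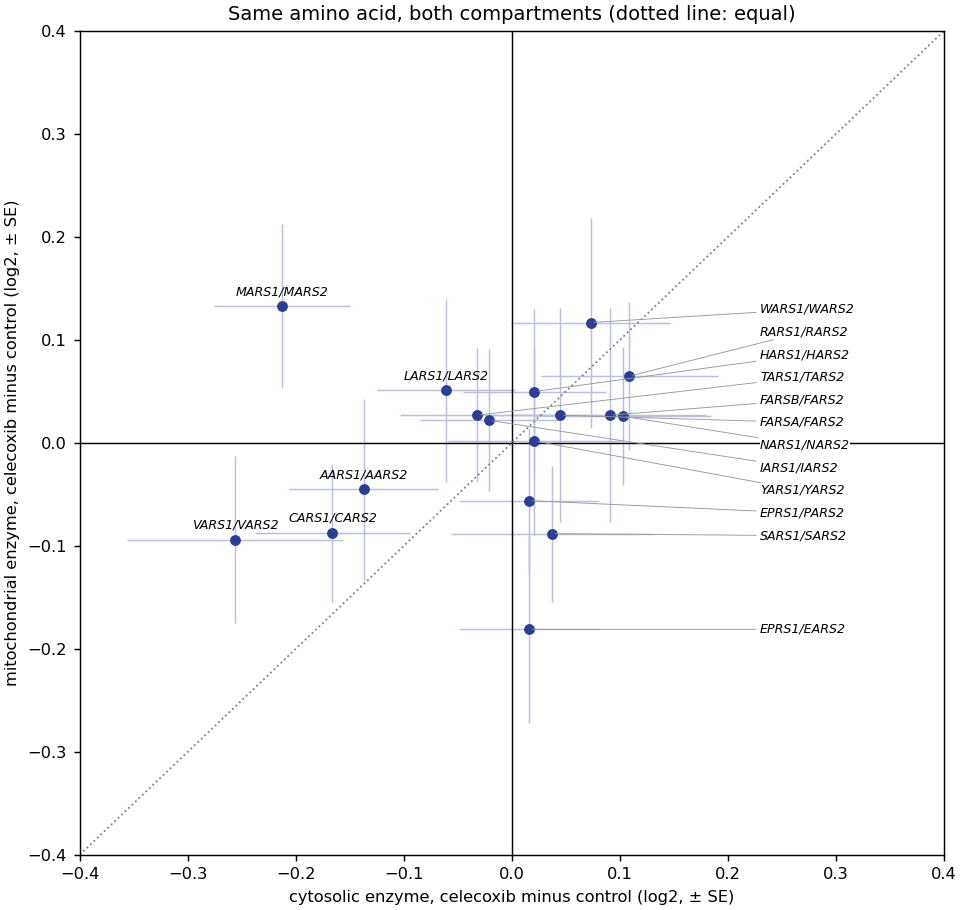
Difference between celecoxib and control (log2) of the cytosolic enzyme (x axis) against its mitochondrial counterpart for the same amino acid (y axis), each with its standard error; the dotted line marks equal differences. Pairings fall in all 4 quadrants, with MARS1 and MARS2 farthest into the upper left and VARS1, CARS1 and AARS1 with their counterparts in the lower left.

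Among the 16 cytosolic genes with a promoter window, those that hold the C/EBP-ATF core shown above were mostly the ones with lower values. Of the 7 with the core, 6 were lower and NARS1 was higher, with a median of -0.12, and 4 (MARS1, CARS1, AARS1 and GARS1) had groups apart and lower. Of the 9 without it, KARS1 was lower and 8 were higher, with a median of 0.04 and no gene with groups apart and lower. After quantile normalization and after cyclic loess 6 of the 7 and 4 of the 9 were lower. With the small RNA level as a covariate all 7 and 6 of the 9 were lower, at medians of -0.12 and -0.03. VARS1, LARS1 and YARS1 had no window here and are in neither count. Over all genes the median was 0.001 for the 511 measured genes that hold it and -0.004 for the 13728 that do not, and the share with groups apart and lower was 8.22% and 7.9%. The split was chosen with these values in view and was not tested.

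**Figure D4:**
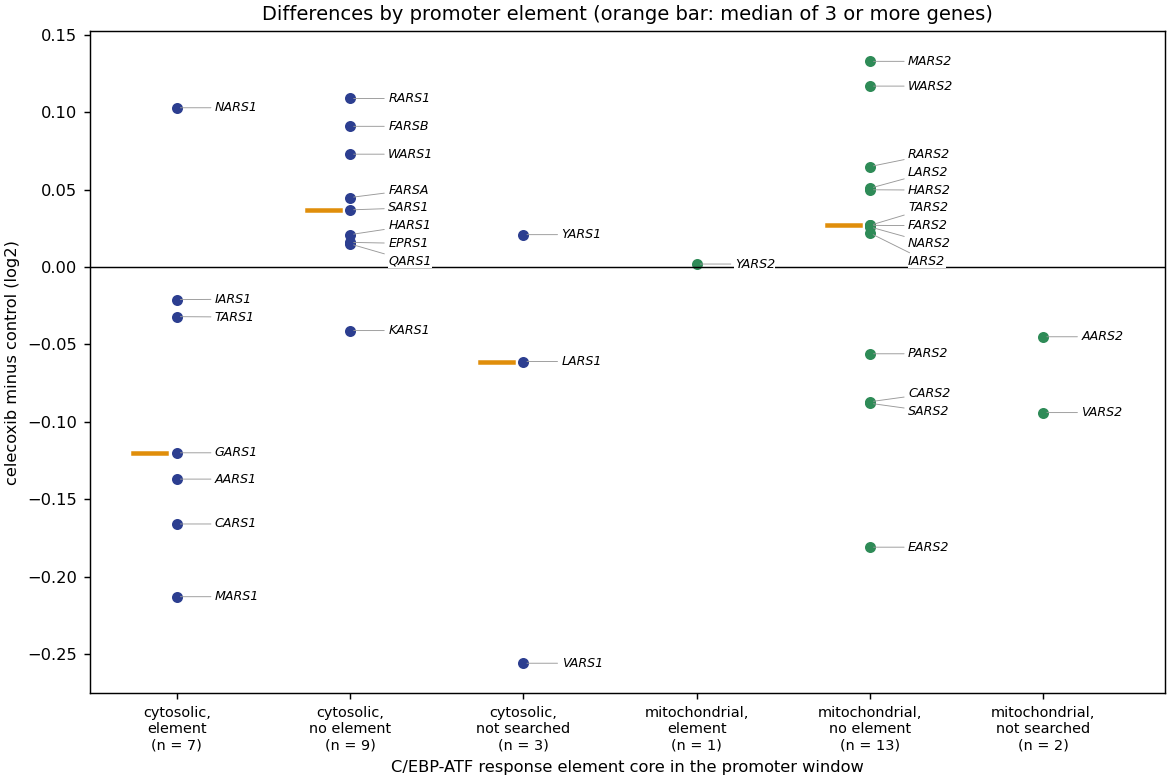
Difference between celecoxib and control (log2, y axis) of each synthetase, grouped by compartment and by whether its promoter window holds the C/EBP-ATF core, with orange bars at medians of 3 or more genes. Of the 7 cytosolic genes with the core, NARS1 is the single one above zero, and of the 9 without it KARS1 is the single one below.

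The 12 cytosolic synthetases listed as known ATF4 targets had 5 higher and 7 lower values with a median of -0.03, and 5 had groups apart and lower, against 7.95% of all genes. The list includes all 7 genes with the core. The other 7 cytosolic enzymes had a median of 0.02, and 1 of them, VARS1, had groups apart and lower. ATF4 itself read 9.94, 9.99 and 10.01 in controls and 9.94, 9.92 and 9.87 with celecoxib, a difference of -0.07 ± 0.07. Its celecoxib arrays all lay below its controls, by a step smaller than the rounding of these values. EIF2AK4, the kinase that senses uncharged transfer RNA, stood at -0.05 ± 0.08 with overlapping groups. Translation of ATF4 and phosphorylation of eIF2 are not read by these arrays.

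Other members of the ATF4 circuit went both ways. Of 33 measured genes, 11 were higher and 22 lower, with a median of -0.05. Groups were apart and lower in 6 (18.2%, against 7.95% of all genes) and apart and higher in 4 (12.1%, against 11.1%). Among genes in the signal range of the synthetases, 16.6% were apart and higher, though this list reaches below that range. SLC7A11, the cystine importer, rose by 0.60 ± 0.07 (adjusted p = 0.0296), from 9.06, 9.01 and 8.98 to 9.64, 9.60 and 9.62, and was the single gene of the list past the threshold. Its difference was 0.57 to 0.62 in all 18 alternatives, but it missed the threshold in 9 of them: with each of the 6 arrays left out in turn, with the replicate block (adjusted p = 0.0942), with the small RNA covariate (adjusted p = 0.239) and over all clusters (adjusted p = 0.198). Without 1 array the adjusted p ran from 0.0724 (without celecoxib array 1) to 0.237 (without control array 1). DDIT3, the stress transcription factor also called CHOP, read 7.21, 7.29 and 7.53 in controls and 8.23, 7.85 and 7.94 with celecoxib (0.66 ± 0.12, adjusted p = 0.11). ASNS, which makes asparagine, read 8.87, 8.60 and 8.88 in controls and 8.62, 8.49 and 8.50 with celecoxib (-0.25 ± 0.09, adjusted p = 0.398), and control array 2 overlapped the celecoxib group. Of the 28 genes of this list with a promoter window, 9 hold the core, with a median of -0.16 against -0.03 for the measured genes without it. SLC7A11 had no window at hand. SLC3A2, the partner chain of SLC7A11 at the cell surface, holds the core and stood at 0.27 ± 0.07 (adjusted p = 0.266). SLC7A5, a further transporter, had the lowest difference of the list at -0.41 ± 0.16 (adjusted p = 0.413), with overlapping groups. An unadjusted limma p under 0.05 was seen in 4 higher and 5 lower genes of the list, against 6.87% and 4.44% of all genes.

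Genes that work beside the cytosolic enzymes were mostly near zero. Of 8 measured scaffold and elongation genes, 2 were higher and 6 lower with a median of -0.04, and none passed the threshold. AIMP1, a scaffold of the complex, stood at -0.06 ± 0.12, and AIMP2 and EEF1E1 were not analysed here. The smallest p-values were those of EEF2, the translocation factor (-0.21 ± 0.11, adjusted p = 0.494), and EEF1G, an eEF1 subunit (-0.07 ± 0.07). Among 24 sensors and eIF2 control genes, 15 were higher and 9 lower with a median of 0.03 and none past the threshold. Groups were apart and higher in 8 of them (33.3%, against 11.1% of all genes and 16.6% of genes in the signal range of the synthetases). They were apart and lower in 1 (4.17%, against 7.95%). EIF2B1, a subunit of the eIF2 exchange factor, had the smallest p (0.20 ± 0.09, adjusted p = 0.425). IMPACT, an inhibitor of GCN2 activation, followed (0.17 ± 0.08, adjusted p = 0.442).

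Genes that work beside the mitochondrial enzymes were mostly higher with celecoxib, by differences that did not pass the test. Of 17 measured genes for mitochondrial transfer RNA maturation and translation, 15 were higher and 2 lower with a median of 0.105. Of all genes 47.9% were higher, as were 52.6% of genes in the signal range of the synthetases, where these 17 lie. None of the 17 passed the threshold. Groups were apart and higher in 6 (35.3%, against 11.1% of all genes and 16.6% in that range). They were apart and lower in 1 (5.88%, against 7.95% and 7.88%). MRRF, the ribosome recycling factor, read 8.87, 8.78 and 8.95 in controls and 9.53, 9.20 and 9.20 with celecoxib (0.44 ± 0.11, adjusted p = 0.223). MTO1, which modifies the wobble base of mitochondrial transfer RNA, read 8.59, 8.60 and 8.61 in controls and 9.04, 8.89 and 8.76 with celecoxib (0.30 ± 0.08, adjusted p = 0.292). GTPBP3, its partner in that modification, went the other way at -0.21 ± 0.09 (adjusted p = 0.438). The list's mean deviation from control was 0.197, 0.114 and 0.035 in celecoxib arrays 1, 2 and 3, so the array with the high small RNA level was also highest here, and its part in the result was not tested. Of 5 other charging and proofreading genes measured, all were higher and none passed the threshold. SEPSECS, which makes selenocysteine on its transfer RNA, stood at 0.35 ± 0.10 (adjusted p = 0.304) and TARS3, a further threonine enzyme, at 0.10 ± 0.09 (adjusted p = 0.681).

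**Figure D5:**
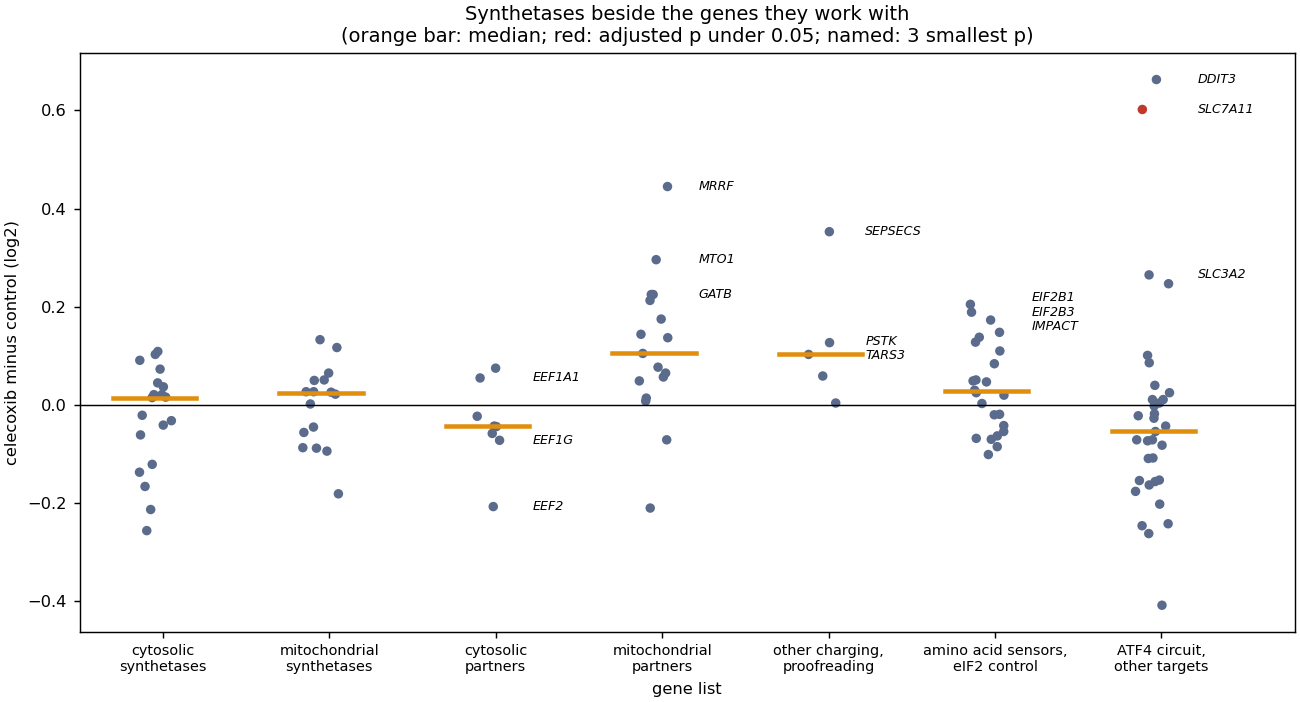
Difference between celecoxib and control (log2, y axis) of each gene in the 2 synthetase groups and in 5 lists of genes that work with them, with orange bars at list medians, red for an adjusted p under 0.05 in limma and names for the 3 smallest p of each list other than the synthetases. The synthetases lie between -0.26 and 0.13, and SLC7A11 is the single red point.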

How the data were processed

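The deposited table holds log2 expression values of 33297 transcript clusters on 6 HuGene-1_0-st arrays, which the authors made with RMA in Affymetrix Expression Console 1.1, per the submitters' processing notes. No scanner file was used, so no cluster was called above or below background. The labels name no slide or scan date, so neither was tested as a batch. Clusters were named from the platform annotation: 19460 had 1 symbol, 1754 several and 12083 none here. Where a gene had several clusters, the one with the highest mean stood for it, which left 18417 genes.

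The 3 celecoxib arrays were compared with the 3 controls with limma 3.58.1 (lmFit, eBayes; R 4.3.3) over all 18417 genes, two-sided, with Benjamini-Hochberg adjustment and a threshold of 0.05. The procedure was tested on simulated data, where high recovery was required only of a change larger than any synthetase difference here. The number of arrays limits the precision. RMA draws the arrays towards 1 distribution, so a shift shared by most genes may not be seen. The deposited values still differed slightly in their median over all clusters. It was 6.8 to 6.82 in controls and 6.75 to 6.79 with celecoxib, each celecoxib array below each control. The small RNA level is the median of 215 genes named SNORA, SNORD, SCARNA, RNU or RNVU.

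The members and gene lists were chosen with earlier results of these data known, so no list was tested; lists are given by counts and medians. Values in every array are given for synthetases past the threshold, with an unadjusted p under 0.05 or with groups that do not overlap, for the largest rise and fall of each compartment, and for GARS1, KARS1, QARS1 and EPRS1. Named from each pathway list were genes past the threshold, the 2 with the smallest p, and ATF4, DDIT3, ASNS, EIF2AK4, AIMP1, AIMP2 and EEF1E1. WARS2, SLC3A2, GTPBP3 and the other genes outside this rule were named after their values were seen. Replicate numbers were not taken to pair the arrays in the main fit. Same-numbered arrays correlated at -0.017, 0.494 and 0.012 (numbers 1, 2 and 3) in their deviations from the group means. Whether the arrays numbered 2 share an effect was not tested beyond the replicate block. Promoter windows came from RefSeq (GRCh38.p14) and were matched by symbol. Alternatives tried were averaging a gene's clusters, testing all clusters, 3 further normalizations, 2 filters on dim genes, an intensity trend, a robust prior, array weights, a replicate block, the small RNA level as a covariate and leaving out each array. Plots used matplotlib 3.10.9 (Python 3.11.15).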

Additional observations from a re-analysis of the deposited data

How the results depend on the processing

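No synthetase passed the adjusted threshold in limma under any of the 18 alternatives, where 1 to 6 had an unadjusted p under 0.05. Of 630 values (35 genes under 18 alternatives), 54 had the opposite sign, in 19 genes, and 16 genes kept their sign throughout. The cause of each change was not tested, apart from the missing array. The small RNA level separates the groups, so values with it as a covariate may also lack part of a difference that goes with treatment. With the small RNA level as a covariate the cytosolic and mitochondrial medians were -0.042 and -0.049 and the median of cytosolic genes without the promoter core was -0.031. The differences there were EPRS1 -0.031, FARSB -0.06, NARS1 -0.033, RARS1 -0.042, SARS1 -0.166, WARS1 -0.03, YARS1 -0.111, AARS2 0.018, FARS2 -0.207, HARS2 -0.057, LARS2 -0.104, RARS2 -0.01, VARS2 0.044, WARS2 -0.131 and YARS2 -0.157. After quantile normalization the cytosolic median was -0.012, the median with the core -0.151, EPRS1 -0.007, HARS1 -0.006, QARS1 -0.012, YARS1 -0.005, FARS2 -0.005 and YARS2 -0.008. After cyclic loess they were -0.022 and -0.158, EPRS1 -0.021, HARS1 -0.015, QARS1 -0.022, YARS1 -0.016, FARS2 -0.008, IARS2 -0.016, NARS2 -0.01 and YARS2 -0.015. With array weights the cytosolic median was -0.029, EPRS1 -0.006, HARS1 -0.001, SARS1 -0.029, YARS1 -0.018, FARS2 -0.037 and YARS2 -0.125. That setting leaned on 1 control: control array 1 had a weight of 5.85, against 0.37 to 1.21 for the other arrays. Leaving out 1 array at a time gave a cytosolic median from -0.032 to 0.018, a mitochondrial median from -0.031 to 0.037 and a median with the core from -0.142 to -0.097. The ranges were -0.104 to 0.015 for AARS2, -0.002 to 0.029 for EPRS1, -0.062 to 0.084 for FARS2, -0.005 to 0.035 for HARS1, -0.012 to 0.091 for HARS2, -0.016 to 0.052 for IARS2, -0.029 to 0.124 for LARS2, -0.001 to 0.042 for NARS2, -0.006 to 0.039 for QARS1, -0.048 to 0.101 for SARS1, -0.032 to 0.076 for YARS1 and -0.059 to 0.073 for YARS2. With the replicate number as a block, 0 synthetases and 0 of all genes passed the threshold, against 0 and 26 without it. An unadjusted limma p under 0.05 was seen in 2448 genes with the block and in 2083 without it. The count over all genes moved from 0 to 177 (array weights) across the alternatives, as 44 after quantile normalization, 42 after cyclic loess, 69 with the intensity trend, 76 and 59 with the 2 filters on dim genes, 1 with the covariate, 0 over all clusters and 0 to 5 with 1 array left out. With 3 arrays per group, a p that misses the threshold does not show that the groups were equal.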
